A study of Mus musculus with 10 samples.

Results

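The 10 genes Cd3e, Cd3d, Cd3g, Lck, Rasgrp1, Cd4, Cd8a, Nkg7, Gzmb and Prf1 encode the signalling chains, coreceptors and killing proteins that mark T cells and natural killer (NK) cells. They were chosen by symbol from a count table of 55487 genes, all 10 were found, and all 10 were among the 20684 genes that passed the low-count filter. RNA came from the RPE/choroid complex, the retinal pigment epithelium (RPE) of the mouse eye with the vascular layer behind it, in 5 control and 5 ADQ samples. Mice of both groups carried the iDTR allele at the Rosa26 locus of C57BL/6, a diphtheria toxin receptor that is made only after Cre recombination, and mice of both groups received diphtheria toxin intraperitoneally. ADQ mice also carried Adiponectin-Cre, in which the promoter of a fat cell hormone drives Cre; the labels give the controls no Cre. Recombination and receptor protein were not measured here. For mice with Cre, toxin was given daily over 7 weeks; the controls' schedule was not separately stated, nor were age or sex, or whether each sample came from a separate animal. The p-values therefore rest on differences among these samples alone, part of which may be technical. The comparison asks how the tissue's transcripts differed between mice built to lose adiponectin-expressing fat cells and controls whose labels give no Cre. Loss of fat cells in the animals was not measured here.

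A T cell recognises antigen through a receptor whose variable chains have almost no cytoplasmic tail; the CD3 chains (epsilon, delta, gamma) and the zeta chain carry the signal inward. The kinase Lck, held by the coreceptors CD4 or CD8, phosphorylates these chains, and RasGRP1 then links the receptor to Ras. Cytotoxic T cells and NK cells kill by releasing perforin (Prf1) and granzymes such as granzyme B (Gzmb) from granules, whose membranes hold Nkg7. A healthy choroid holds resident immune cells, mainly macrophages and mast cells, with few lymphocytes.

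On the GRCm38 build Cd3g, Cd3d and Cd3e form a cluster on chromosome 9 that spans 40056 bases. Cd3g (44969572 to 44980431, minus strand) and Cd3d (44981786 to 44987339, plus strand) point away from each other, with 1355 bases between their starts, and Cd3e (44998740 to 45009627, minus strand) follows. The antisense gene Gm48719 overlaps Cd3e exons, and without stated strand use its reads cannot be told apart from those of Cd3e. The stretches before the starts of these 3 genes are shown because the genes moved together, those of Lck and Rasgrp1 because their groups did not overlap. Each line is RefSeq sequence of GRCm38.p6 upstream of a start, 5′ to 3′ on the gene's strand, without bases that GENCODE M21 places in an exon. Capitals mark matches, on either strand and none overlapping another, to short motifs of 5 factor families. The ETS motif searched was AGGAAG. The RUNX motif was TGTGGT. The E-box motifs were CAGCTG and, as a second form, CACCTG. The TCF/LEF motif was CTTTGA. The GATA motif was AGATAA.
Cd3g, chr9:44980432-44980681, minus strand: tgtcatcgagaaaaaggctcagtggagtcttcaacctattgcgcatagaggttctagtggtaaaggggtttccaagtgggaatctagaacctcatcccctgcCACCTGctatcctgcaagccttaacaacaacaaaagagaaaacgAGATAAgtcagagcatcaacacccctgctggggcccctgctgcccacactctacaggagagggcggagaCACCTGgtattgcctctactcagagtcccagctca
Cd3d, chr9:44981536-44981785, plus strand: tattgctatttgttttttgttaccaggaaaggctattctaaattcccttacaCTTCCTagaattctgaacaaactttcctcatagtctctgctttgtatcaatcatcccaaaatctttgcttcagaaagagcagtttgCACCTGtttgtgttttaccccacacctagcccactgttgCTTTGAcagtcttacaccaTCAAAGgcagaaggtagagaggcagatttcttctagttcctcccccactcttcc
Cd3e, chr9:45009628-45009861, minus strand: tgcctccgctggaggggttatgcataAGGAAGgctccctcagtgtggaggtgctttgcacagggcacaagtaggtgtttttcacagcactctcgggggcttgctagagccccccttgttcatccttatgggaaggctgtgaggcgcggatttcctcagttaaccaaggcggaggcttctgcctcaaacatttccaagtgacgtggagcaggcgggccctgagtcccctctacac
Lck, upstream start, chr4:129573642-129573891, minus strand: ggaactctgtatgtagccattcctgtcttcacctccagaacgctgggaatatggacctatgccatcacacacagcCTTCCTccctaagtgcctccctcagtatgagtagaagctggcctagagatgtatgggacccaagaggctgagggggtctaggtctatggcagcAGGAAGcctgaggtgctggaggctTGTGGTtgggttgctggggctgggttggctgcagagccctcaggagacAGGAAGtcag
Lck, downstream start, chr4:129558392-129558622, minus strand: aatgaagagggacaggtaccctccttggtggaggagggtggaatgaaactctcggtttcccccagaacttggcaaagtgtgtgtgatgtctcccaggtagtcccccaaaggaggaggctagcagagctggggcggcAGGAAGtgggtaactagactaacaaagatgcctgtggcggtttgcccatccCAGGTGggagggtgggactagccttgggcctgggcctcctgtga
Rasgrp1, chr2:117343002-117343127, minus strand: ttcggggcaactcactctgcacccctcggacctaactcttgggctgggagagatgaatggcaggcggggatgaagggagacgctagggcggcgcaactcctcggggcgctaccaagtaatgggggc

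The Cd3g stretch held 2 CACCTG matches and 1 AGATAA match, and that of Cd3d held 1 CACCTG, 1 AGGAAG and 2 CTTTGA matches. The Cd3e stretch held 1 AGGAAG match. The upstream Lck stretch held 3 AGGAAG matches and 1 TGTGGT match, the downstream one 1 AGGAAG and 1 CACCTG match, and the Rasgrp1 stretch none of the 6 motifs. Of 32851 promoter windows of 250 bases, 29.5% held AGGAAG, 17.2% CACCTG, 14.0% TGTGGT, 13.8% CTTTGA and 9.99% AGATAA, so single matches are common. In the 126-base window used for Rasgrp1 these shares ran from 5.63% for AGATAA to 15.1% for AGGAAG. A match is a description of letters, not of a bound site. RefSeq promoter entries were matched for 9 of the 10 genes, Cd4 being the exception.

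One control library stood apart. Library totals ran from 43591245 to 64087660 counts. Adipoq, the adiponectin gene, had 0 counts in the library labelled control 5, which allows up to 0.0624 CPM (counts scaled to a common library size; counting error only). Controls 1 to 4 held 177 to 402 Adipoq counts, and ADQ libraries 8 to 77. The 9 adipocyte markers summed to 45.3 CPM in it, below the 50.3 to 78.5 CPM of ADQ and the 113 to 211 CPM of controls 1 to 4. In these markers the library labelled control 5 was unlike the other controls. How much fat tissue each dissection carried was not measured. Some other values in it were unlike those of ADQ. Its keratins listed for cornea and conjunctiva summed to 540 CPM, against 0.65 to 1.74 CPM in ADQ. In controls 1 to 4 they summed to 2.21 to 2069 CPM. Its Rasgrp1 and Lck levels were below those of every ADQ library. The label may be wrong, which was not tested, and every fold and p from all libraries takes the label as given. In CPM the same library was the highest control in 9 of the 10 genes, all but Cd4. Fold changes and tests below are therefore given with and without it; because it was highest, leaving it out widens these differences by itself. RPE markers were abundant in every library (10 markers, 33364 to 55667 summed CPM), as were choroidal endothelial markers (8 markers, 775 to 1176 CPM).

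All 10 genes had a log2 fold change above 0 (ADQ over control), with a median of 1.59, against a median of 0.01 and 51.8% above 0 over all genes tested. Of the 10, only Rasgrp1 rose at an adjusted p under 0.05 over all genes tested (edgeR quasi-likelihood test, Benjamini-Hochberg adjustment). Among all genes tested 0.827% passed, 0.74% upward and 0.087% downward. In Rasgrp1 and Lck every ADQ library lay above every control library, which held for 2.09% of all genes tested, with 1.07% the other way round. Without the library labelled control 5, 7 of the 10 rose (Cd3e, Cd3d, Cd3g, Lck, Rasgrp1, Cd8a and Nkg7) and the median was 2.17, against 1.5% of all genes passing upward. The same 7 genes then had groups that did not overlap, against 3.54% of all genes. Cd4, Gzmb and Prf1 passed in neither fit. In bulk RNA, fewer or more cells of a type and less or more RNA per cell cannot be told apart.

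**Figure D1:**
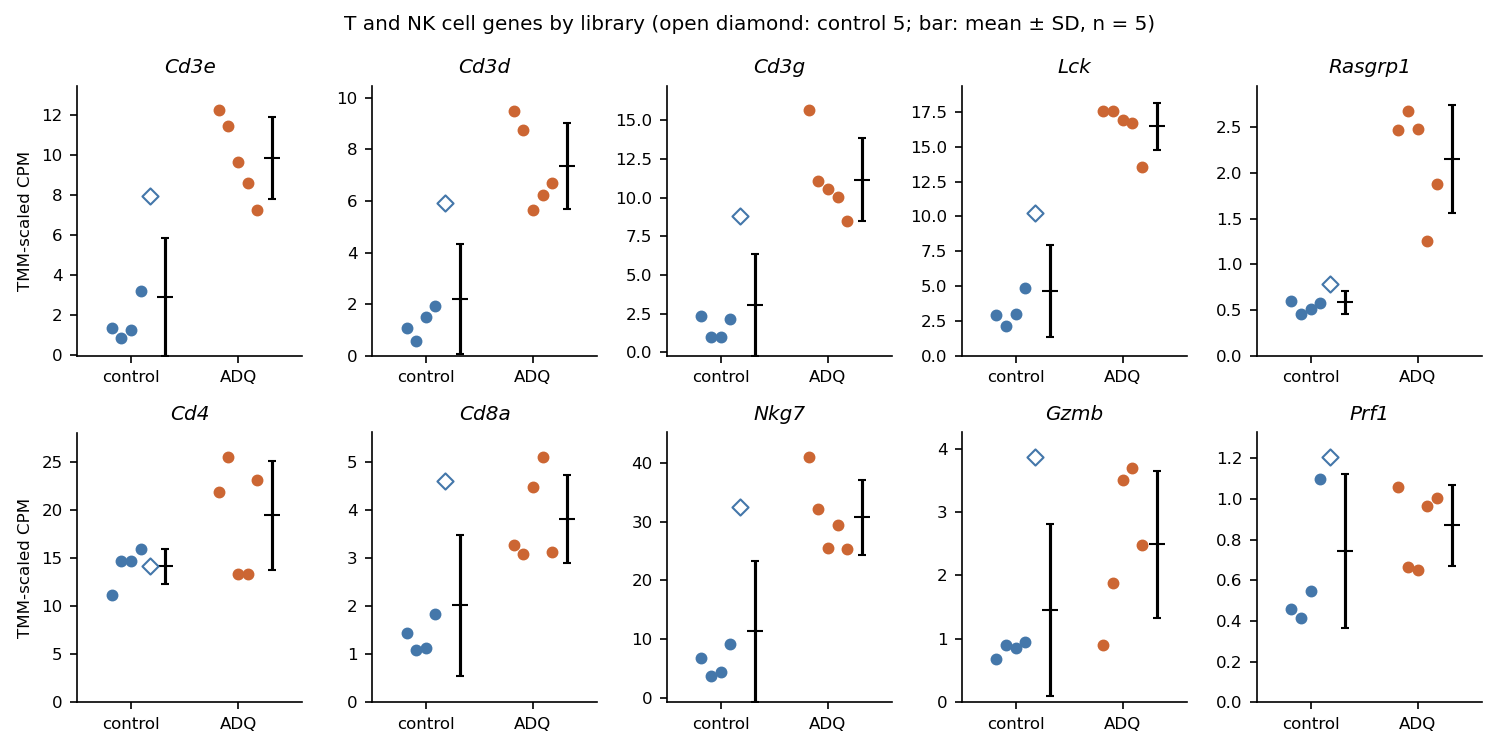
Normalised expression (TMM-scaled CPM, vertical axes differ) of the 10 genes in each of 5 control and 5 ADQ libraries, with mean ± SD beside the points. The open diamond is the library labelled control 5, which lies within the ADQ range for Cd3e, Cd3d, Cd3g, Cd4, Cd8a and Nkg7, above it for Gzmb and Prf1, and below it for Rasgrp1 and Lck.

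The CD3 chains were low in 4 controls and higher in every ADQ library than in those 4. Cd3e was at 1.33, 0.829, 1.25, 3.21 and 7.94 CPM in controls 1 to 5, and at 12.2, 11.5, 9.69, 8.59 and 7.24 CPM in ADQ 1 to 5. The groups overlapped through 1 control, which lay above ADQ 5 and below the other ADQ libraries. The log2 fold change was 1.76 (SE 0.58, adjusted p = 0.235), and 2.57 (adjusted p = 0.00196) without the library labelled control 5.

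Cd3d was at 1.10, 0.572, 1.52, 1.94 and 5.92 CPM in controls 1 to 5, and at 9.50, 8.74, 5.65, 6.24 and 6.70 CPM in ADQ 1 to 5. Again only the library labelled control 5 reached the ADQ range, above ADQ 3. For Cd3d the log2 fold change was 1.73 (SE 0.52, adjusted p = 0.186), and 2.52 (adjusted p = 7.3e-04) without that library. Cd3g was at 2.34, 1.03, 0.995, 2.16 and 8.81 CPM in controls, and at 15.6, 11.1, 10.5, 10.04 and 8.51 CPM in ADQ. It had the largest fold of the 3 chains, 3.64-fold (log2 fold change 1.86, SE 0.59, adjusted p = 0.218). Without the library labelled control 5 it was 2.78 (adjusted p = 2.7e-04). The coefficient of variation of Cd3g was 107% in control, 44.1% in controls 1 to 4 and 24.0% in ADQ.

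The 3 chains kept similar proportions in the libraries with enough counts. Cd3e made up 32.3 to 37.5% of the summed CPM of the 3 chains in ADQ, Cd3g 35.4 to 41.8% and Cd3d 21.8 to 29.8%. The library labelled control 5 lay inside all 3 ranges (35.0, 38.9 and 26.1%). In controls 1 to 4, which held 29 to 149 counts per chain, the shares spread more widely, for Cd3e from 27.9 to 44.0%.

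Lck, the kinase that starts receptor signalling, was at 2.96, 2.11, 3.02, 4.85 and 10.3 CPM in controls 1 to 5 and at 17.6, 17.5, 16.9, 16.7 and 13.5 CPM in ADQ 1 to 5. Every ADQ library was above every control, and the coefficient of variation was 10.2% in ADQ, 71.1% in control and 35.7% in controls 1 to 4. The log2 fold change was 1.83 (SE 0.38), with an adjusted p of 0.0614, so Lck did not pass with all libraries. Lck passed without the library labelled control 5 (2.35, adjusted p = 5.3e-05), with DESeq2 (adjusted p = 8.9e-04, with 2.19% of all genes passing upward) and under 6 of the other alternatives. Lck lies on chromosome 4 at 129548344 to 129573641 (minus strand), and the miRNA gene Mir8119 lies in one of its exons.

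Rasgrp1, the exchange factor that activates Ras below the T cell receptor, was the 1 gene that rose with all libraries. Its CPM was 0.596, 0.454, 0.507, 0.582 and 0.790 in controls 1 to 5 (23 to 38 counts) and 2.47, 2.68, 2.48, 1.25 and 1.87 in ADQ 1 to 5 (57 to 137 counts). The groups did not overlap, with ADQ 4 lowest of ADQ, and the mean went from 0.586 ± 0.128 to 2.15 ± 0.586 CPM (SD, n = 5). The rise was 3.66-fold (log2 fold change 1.87, SE 0.27, edgeR adjusted p = 0.00571). The adjusted p was between 0.00197 and 0.0255 when any 1 library was left out. Rasgrp1 lies on chromosome 2 at 117279993 to 117343001 (minus strand), with no overlapping gene in GENCODE M21.

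Rasgrp1 differed from the CD3 chains in the library labelled control 5. There Rasgrp1 was 1.48 times the mean of controls 1 to 4, whereas Cd3e was 4.80, Cd3d 4.61 and Cd3g 5.41 times theirs. This is 1 library and was not tested. Relative to the summed CD3 chains, Rasgrp1 was lowest in that same library, at 3.48%, against 7.96 to 18.7% in controls 1 to 4 and 5.04 to 9.59% in ADQ. The ranges of this ratio in ADQ and in controls 1 to 4 overlapped, although those of the Rasgrp1 level did not.

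The coreceptors behaved differently from each other. Cd8a was at 1.44, 1.09, 1.13, 1.83 and 4.59 CPM in controls 1 to 5 and at 3.27, 3.09, 4.48, 5.10 and 3.13 CPM in ADQ 1 to 5. Controls 1 to 4 lay below all ADQ libraries, and the library labelled control 5 lay above 4 of the 5. Its log2 fold change was 0.92 (SE 0.37, adjusted p = 0.303), and 1.47 (adjusted p = 0.00703) without that library.

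Cd4, the coreceptor of helper T cells, which mouse dendritic cells and some macrophages also make, was at 11.2, 14.7, 14.7, 15.98 and 14.2 CPM in controls 1 to 5 and at 21.8, 25.5, 13.4, 13.4 and 23.1 CPM in ADQ 1 to 5. The ADQ libraries split, with ADQ 3 and 4 within the control range and ADQ 1, 2 and 5 above it. For Cd4 the log2 fold change was 0.46 (SE 0.18, adjusted p = 0.3), and 0.46 (adjusted p = 0.391) without the library labelled control 5. Cd4 did not follow the CD3 chains: it was 219 to 607% of their sum in controls 1 to 4, 62.7% in the library labelled control 5, and 51.6 to 103% in ADQ. The 12 macrophage and microglia markers summed to 2904, 2533 and 2300 CPM in ADQ 1, 2 and 5. They summed to 1839 and 2189 CPM in ADQ 3 and 4, so the sum split as Cd4 did. Of the single markers C1qa, C1qb, C1qc, Csf1r, Aif1 and Fcgr1 split this way. Adgre1, Cd68, Mrc1, Lyve1, Cx3cr1 and Mertk did not. In controls the sums ran from 1779 to 2269 CPM, highest in the library labelled control 5, where Cd4 was at 14.2 CPM. The 8 dendritic cell markers summed to 45.1 to 61.9 CPM in controls and 65.6 to 82.1 CPM in ADQ. The lowest ADQ sum was in ADQ 5, where Cd4 was at 23.1 CPM. The part of macrophage or dendritic cell markers in the Cd4 values was not tested.

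The ratio of Cd4 to Cd8a was 7.73 to 13.6 in controls 1 to 4, 3.09 in the library labelled control 5 and 2.62 to 8.25 in ADQ. In ADQ 3 and 4 it was 2.98 and 2.62, and in ADQ 1, 2 and 5 it was 6.68, 8.25 and 7.40. Since cells other than T cells can make Cd4, the ratio is one of transcripts, not of helper to cytotoxic cells.

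**Figure D2:**
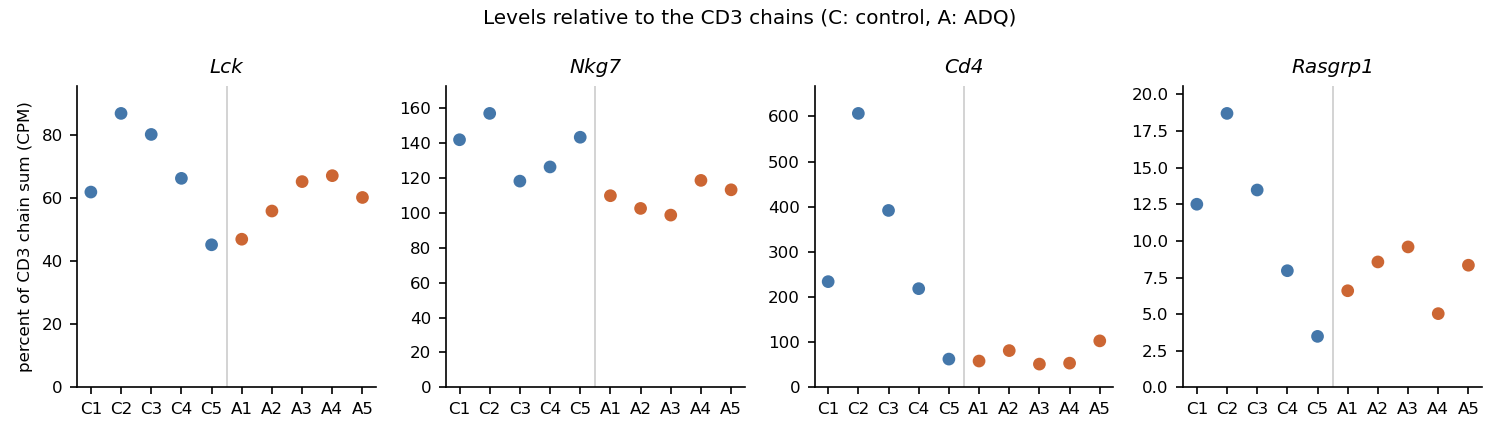
CPM of Lck, Nkg7, Cd4 and Rasgrp1 as a percent of the summed CPM of Cd3e, Cd3d and Cd3g in each library (C1 to C5 control, A1 to A5 ADQ). Nkg7 stays between 98.7 and 157% throughout, whereas Cd4 runs from 51.6 to 607%.

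Nkg7, a granule membrane protein of NK cells and cytotoxic T cells, had a spread like that of the CD3 chains. It was at 6.76, 3.81, 4.45, 9.23 and 32.5 CPM in controls 1 to 5 and at 41.0, 32.1, 25.5, 29.5 and 25.4 CPM in ADQ 1 to 5. The library labelled control 5 lay above 4 of the 5 ADQ libraries, and controls 1 to 4 lay below all of them. The log2 fold change was 1.44 (SE 0.59, adjusted p = 0.336), and 2.34 (adjusted p = 5.8e-04) without that library. Nkg7 kept close to the CD3 sum, at 118 to 157% of it in control and 98.7 to 119% in ADQ.

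The 2 killing proteins did not pass with or without the library labelled control 5. Gzmb was at 0.687, 0.908, 0.858, 0.949 and 3.87 CPM in controls 1 to 5, and at 0.909, 1.88, 3.51, 3.69 and 2.48 CPM in ADQ 1 to 5. ADQ 1, which had the most CD3, was within the range of controls 1 to 4, and the library labelled control 5 was the highest of all 10. The log2 fold change was 0.78 (SE 0.51, adjusted p = 0.508), and 1.55 (adjusted p = 0.0624) without that library.

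Prf1, which encodes perforin, was at 0.458, 0.414, 0.546, 1.10 and 1.21 CPM in controls (20 to 58 counts) and at 1.06, 0.665, 0.648, 0.967 and 1.01 CPM in ADQ (34 to 65 counts). The groups overlapped, and controls 4 and 5 lay above every ADQ library. The log2 fold change was 0.22 (SE 0.35, adjusted p = 0.799), and 0.46 (adjusted p = 0.614) without the library labelled control 5. As a percent of the CD3 sum, Prf1 was at 9.62 to 17.1 in controls 1 to 4, 5.32 in the library labelled control 5 and 2.12 to 4.48 in ADQ.

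**Figure D3:**
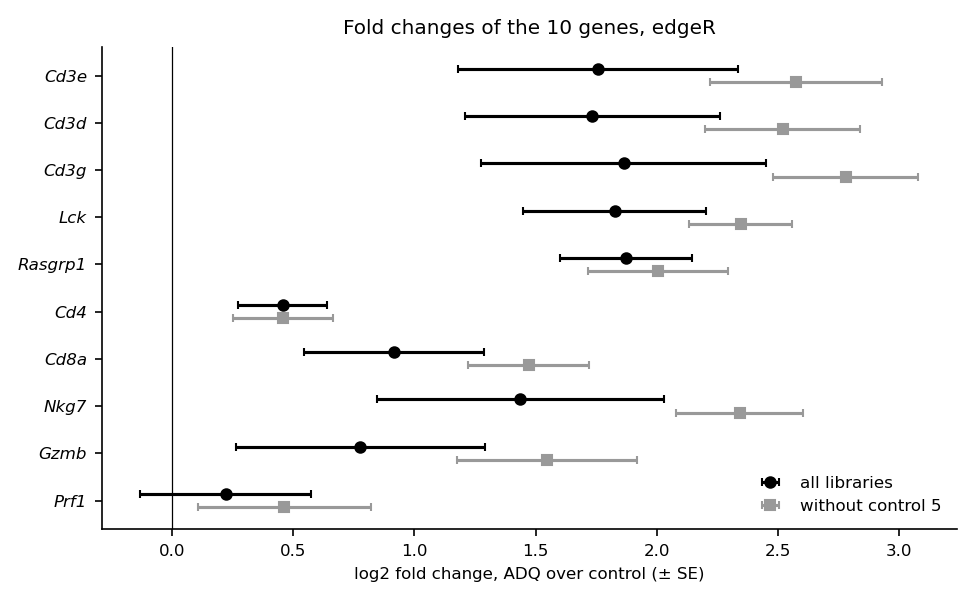
Log2 fold change (ADQ over control, ± SE, edgeR) of each gene with all 10 libraries (circles) and without the library labelled control 5 (squares). Cd3g moves from 1.86 to 2.78, Rasgrp1 from 1.87 to 2.00 and Cd4 stays at 0.46.

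Levels of different genes can be set side by side only per length. In CPM per kb of exon, Nkg7 led in both groups, at 12.4 ± 13.1 in control and 33.6 ± 7.03 in ADQ (SD, n = 5). In ADQ it was followed by Lck (5.62 ± 0.571), Cd4 (4.82 ± 1.42), Cd3d (4.06 ± 0.919), Cd3g (3.42 ± 0.82), Cd3e (2.41 ± 0.502), Gzmb (1.74 ± 0.806), Cd8a (1.05 ± 0.253), Rasgrp1 (0.384 ± 0.105) and Prf1 (0.336 ± 0.0762). The ADQ range of Nkg7 did not overlap that of its neighbour, its lowest value of 27.8 being above the highest Lck value of 6.01; the ranges of each next pair from Lck down to Cd8a overlapped, as did those of Rasgrp1 and Prf1. The lowest Cd8a value (0.85) also lay above the highest Rasgrp1 value (0.479). In control Cd4 came second (3.51 ± 0.447) and Rasgrp1 last (0.105 ± 0.0228). In controls 1 to 4 Nkg7 was at 6.63 ± 2.69 CPM per kb, Cd4 at 3.51 ± 0.516 and Rasgrp1 at 0.0955 ± 0.0119 (SD, n = 4), in the same places.

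Likeness to Cd3e was measured over 13745 protein-coding genes whose mean reached 1 CPM. Those outside the 10 whose log2 CPM over the 10 libraries was most like that of Cd3e were Skap1 and Cd2 (Pearson r = 0.989 each), Ctsw (0.987), Ms4a4b (0.986), Sh2d2a, Gvin1 and Tbc1d10c (0.984 each), Cd6 (0.980), Gimap3 (0.976) and Cxcr6 (0.972). After each group's mean was subtracted, r for these 10 was still 0.920 to 0.991. Of the chosen genes, Lck (0.986), Nkg7 (0.984) and Cd3d (0.979) were as close to Cd3e, and Cd3g (0.968) lay just below those 10. Cd8a (0.924) and Rasgrp1 (0.878) were less close, and Prf1 (0.711), Gzmb (0.685) and Cd4 (0.509) least. With group means subtracted the order changed: r was 0.988 for Lck, 0.961 for Nkg7, 0.942 for Cd3d, 0.910 for Cd3g, 0.852 for Cd8a, 0.804 for Prf1, 0.619 for Rasgrp1, 0.541 for Gzmb and 0.137 for Cd4, so Prf1 was then closer to Cd3e than Rasgrp1. These values describe 10 libraries that share the control 5 difference.

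The other genes of T cell receptor signalling had log2 fold changes mostly above 0. Of 22 tested, 1 rose, none fell and 21 were above 0, with a median of 1.24. For this list and the next ones, the shares over all genes tested were 0.74% rising and 51.8% above 0. Lcp2, the SLP-76 adaptor, which myeloid cells and mast cells also use, rose 2.02-fold from 7.34 ± 1.19 to 14.8 ± 2.15 CPM (SD, n = 5; edgeR adjusted p = 0.00508, and at most 0.0208 without any 1 library). Sh2d1a, the adaptor SAP of T and NK cells, was at 0.178 to 1.27 CPM in control and 1.56 to 2.14 in ADQ (log2 fold change 1.75, adjusted p = 0.0815). Ubash3a, a phosphatase that restrains T cell signalling, had 1.66 (adjusted p = 0.099) and Vav1, a leukocyte exchange factor, 0.46 (adjusted p = 0.112). Without the library labelled control 5 the log2 fold changes were 1.07 for Lcp2 (adjusted p = 0.00196), 2.30 for Sh2d1a (0.0028), 2.24 for Ubash3a (0.0019) and 0.52 for Vav1 (0.0682). In that fit 16 of the list rose, against 1.5% of all genes. Zap70, Lat, Cd5 and Cd6 were among the 16 and were named after their values were seen.

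Of the 4 constant genes of the antigen receptor none passed, all 4 had log2 fold changes above 0 and the median was 1.62. Trac, the alpha chain, was at 1.78 to 8.29 CPM in control and 9.27 to 14.9 in ADQ, with no overlap (log2 fold change 1.74, adjusted p = 0.093). Trbc1 and Trbc2, the 2 beta chains, which are near-identical copies so that their separate values are uncertain, had 1.62 and 1.63 (adjusted p = 0.179 and 0.259). Trdc, of gamma-delta T cells, was at 0.132 to 0.783 CPM in all libraries (log2 fold change 0.40, adjusted p = 0.727). Without the library labelled control 5, Trac (2.37, adjusted p = 2.8e-05), Trbc1 (2.41, 5.0e-04) and Trbc2 (2.45, 8.1e-04) rose and Trdc had 0.45 (0.748). Of all genes 1.5% rose in that fit.

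Among 21 tested cytotoxic granule and NK receptor genes 1 rose, none fell, 19 were above 0 and the median was 0.91. Cd226, the adhesion receptor DNAM-1 of NK and T cells, rose 3.39-fold, from 0.52 ± 0.272 to 1.77 ± 0.2 CPM (SD, n = 5; edgeR adjusted p = 0.0194). Its groups did not overlap, and its adjusted p went to 0.0535 without control 2, 0.0669 without control 4, 0.0688 without ADQ 2 and 0.0556 without ADQ 4. Klrk1, the activating receptor NKG2D, had a log2 fold change of 1.13 (adjusted p = 0.0574), Serpinb9, an inhibitor of granzyme B, 0.41 (adjusted p = 0.0772) and Unc13d, which primes granules for release, 0.66 (adjusted p = 0.0948). Without the library labelled control 5, Cd226 had 2.12 (adjusted p = 9.0e-04), Klrk1 1.34 (0.00999), Serpinb9 0.37 (0.114) and Unc13d 0.74 (0.0576). In that fit 9 of the list rose, against 1.5% of all genes.

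Of 14 tested genes of T cell activation and tissue residence, 1 rose, none fell, 14 were above 0 and the median was 0.94. Il2rg, the gamma chain shared by several interleukin receptors and found on many leukocytes, rose 2.01-fold from 10.1 ± 1.93 to 20.3 ± 2.15 CPM (SD, n = 5; edgeR adjusted p = 0.00296, and at most 0.0151 without any 1 library). Cd69, an early activation and residence marker, had a log2 fold change of 1.97 (adjusted p = 0.0948), the homing receptor Ccr7 0.93 (adjusted p = 0.115) and Itgae, an integrin chain of resident T cells, 1.08 (adjusted p = 0.12). Leaving out the library labelled control 5 gave 1.11 for Il2rg (adjusted p = 3.3e-04), 2.61 for Cd69 (0.00518), 1.07 for Ccr7 (0.0635) and 1.22 for Itgae (0.0823). In that fit 3 of the list rose, against 1.5% of all genes.

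No gene of the 12 lineage transcription factors passed, 10 of the 12 were above 0 and their median was 0.61. Ikzf3, a lymphocyte factor, had a log2 fold change of 1.53 (adjusted p = 0.143), the T cell factor Tcf7 0.49 (adjusted p = 0.153) and Gata3, of type 2 T cells, 1.16 (adjusted p = 0.227). Leaving out the library labelled control 5 gave 2.06 for Ikzf3 (adjusted p = 0.0132), 0.52 for Tcf7 (0.166) and 1.68 for Gata3 (0.021). In that fit 5 of the list rose, against 1.5% of all genes.

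The relatives of Rasgrp1 and the Ras feedback genes had log2 fold changes on both sides of 0. None of 11 tested genes passed in either direction, with all libraries or without the library labelled control 5, and their median was -0.0037 with a range of -0.40 to 0.23. Rasgrp3, the family member found in endothelium and B cells, was at 174 to 203 CPM in control and 155 to 172 in ADQ (log2 fold change -0.19, adjusted p = 0.309). Rasgrp2, the platelet and T cell member, had -0.26 (adjusted p = 0.439), and the feedback genes Spry2 and Dusp5 had -0.23 and -0.32 (adjusted p = 0.499 and 0.648). These were, without the library labelled control 5, -0.21 (Rasgrp3, adjusted p = 0.308), -0.14 (Rasgrp2, 0.679), -0.16 (Spry2, 0.696) and -0.28 (Dusp5, 0.746).

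**Figure D4:**
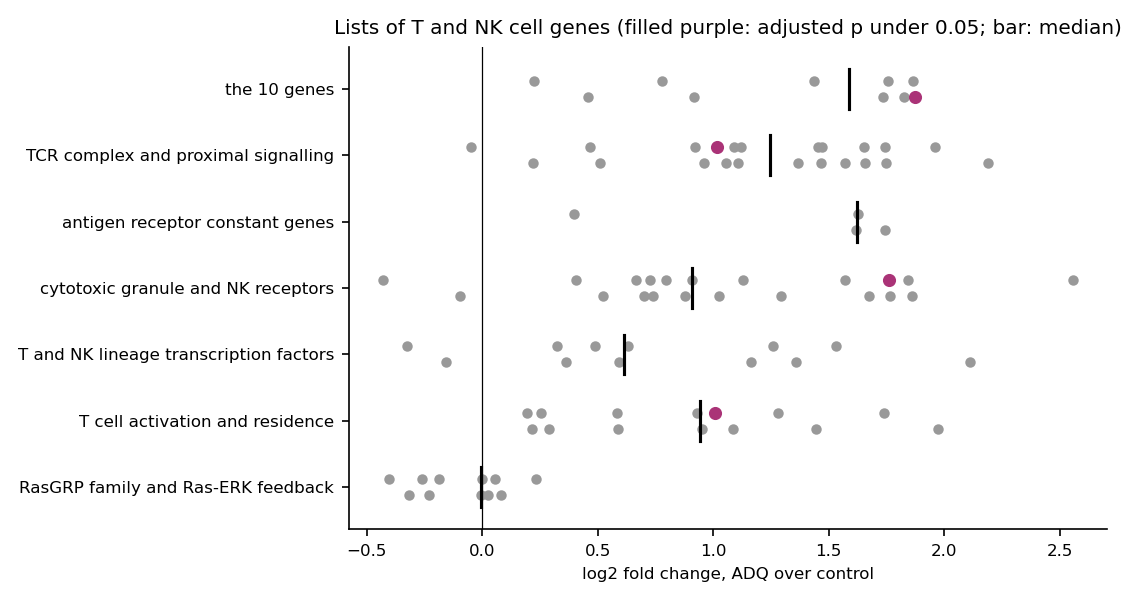
Log2 fold change (ADQ over control) of each tested gene in the 10-gene set and in 6 lists, 1 point a gene; bars are list medians and filled purple points passed an adjusted p of 0.05. The passing genes are Rasgrp1, Lcp2, Cd226 and Il2rg, and the RasGRP and feedback list has a median of -0.0037.

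Markers of other cells moved with some of these values. Hemoglobin transcripts, a measure of blood in the dissection, summed to 152, 74.1, 571, 1500 and 2105 CPM in controls 1 to 5, so the library labelled control 5 was highest and controls 4 and 5 were highest in both hemoglobin and CD3. In ADQ they ran from 705 to 1219 CPM, inside the control range, and ADQ 1, which had the least hemoglobin of its group, had the most CD3. Control 4 had more hemoglobin than any ADQ library and 7.31 CPM of summed CD3, against 22.5 to 37.4 CPM in ADQ. The part of blood in the CD3 values was not tested. With the erythroid level as a covariate, an alternative chosen after seeing the data, 3 of the 10 rose: Rasgrp1 (log2 fold change 1.79, edgeR adjusted p = 0.0194), Lck (1.63, adjusted p = 0.00573) and Cd3d (1.56, adjusted p = 0.0411), while Cd3e had 1.62 (adjusted p = 0.0546). Of all genes tested in that fit, 133 passed, 120 of them upward.

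Keratins listed for cornea and conjunctiva (6 genes), surface epithelium with lymphocytes of its own, summed to 2.21 to 2069 CPM in control and 0.65 to 1.74 CPM in ADQ, without overlap. Krt12, the corneal keratin of the list, was at most 0.275 CPM in control and 0.0879 CPM in ADQ. The control sums came from the other keratins and do not show that cornea was carried over. Control 3 had the most keratin and 3.76 CPM of summed CD3. The library labelled control 5 had 540 CPM of keratin and 22.7 CPM of summed CD3. The part of surface epithelium in the CD3 values was not tested. With keratin level as a covariate no gene of the 10 passed, the log2 fold change of Rasgrp1 being 2.19 (edgeR adjusted p = 0.283), and 7 genes passed in all; keratin level and group cannot be told apart here.

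Rod photoreceptor markers (10 genes), which show carried-over retina, summed to 318 to 1780 CPM in control and 323 to 3591 CPM in ADQ. The 8 neuronal markers summed to 50.7 to 145 CPM in control and 54.2 to 235 CPM in ADQ, and neurons can also make Rasgrp1. Mast cells can make it too, and the 7 mast cell markers summed to 38.5 to 96.0 CPM in control and 20.9 to 75.6 CPM in ADQ. The 11 B and plasma cell markers summed to 8.94 to 17.2 CPM in control, to 59.0, 43.7, 35.1 and 44.3 CPM in ADQ 1 to 4, and to 7.97 CPM in ADQ 5. In ADQ 1 to 4 most of this was Jchain, the joining chain of secreted antibodies, named after its values were seen: 3.48 to 8.79 CPM in control, 28.4 to 49.0 CPM in ADQ 1 to 4 and 0.805 CPM in ADQ 5. Of 8 tested none passed (median 0.29), Jchain having a log2 fold change of 2.39 (edgeR adjusted p = 0.259), 2.60 (0.308) without the library labelled control 5, and 2.70 (6.0e-04) without ADQ 5. Of the 12 macrophage and microglia markers, Aif1 (log2 fold change 0.92, edgeR adjusted p = 0.00756) and Adgre1 (0.47, adjusted p = 0.0476) rose, and of 8 dendritic cell markers Xcr1 rose (2.10, adjusted p = 0.0141). Of all genes tested 0.74% rose. The macrophage and microglia list had 11 above 0, a median of 0.30 and its lowest value in Lyve1 (-0.59). The dendritic cell list had 7 above 0, a median of 0.40 and its lowest value in Cd209a (-0.70). Adgre1 did not pass when any 1 library was left out (adjusted p 0.0549 to 0.144), nor Xcr1 without ADQ 2 (0.0509) or control 4 (0.0577). Leaving out the library labelled control 5 gave Aif1 1.05 (4.1e-04), Adgre1 0.43 (0.0699) and Xcr1 2.39 (0.00269). No marker of these lists was at 0 in all 10 libraries. The part of these cell types in the values of the 10 genes was not tested.

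**Figure D5:**
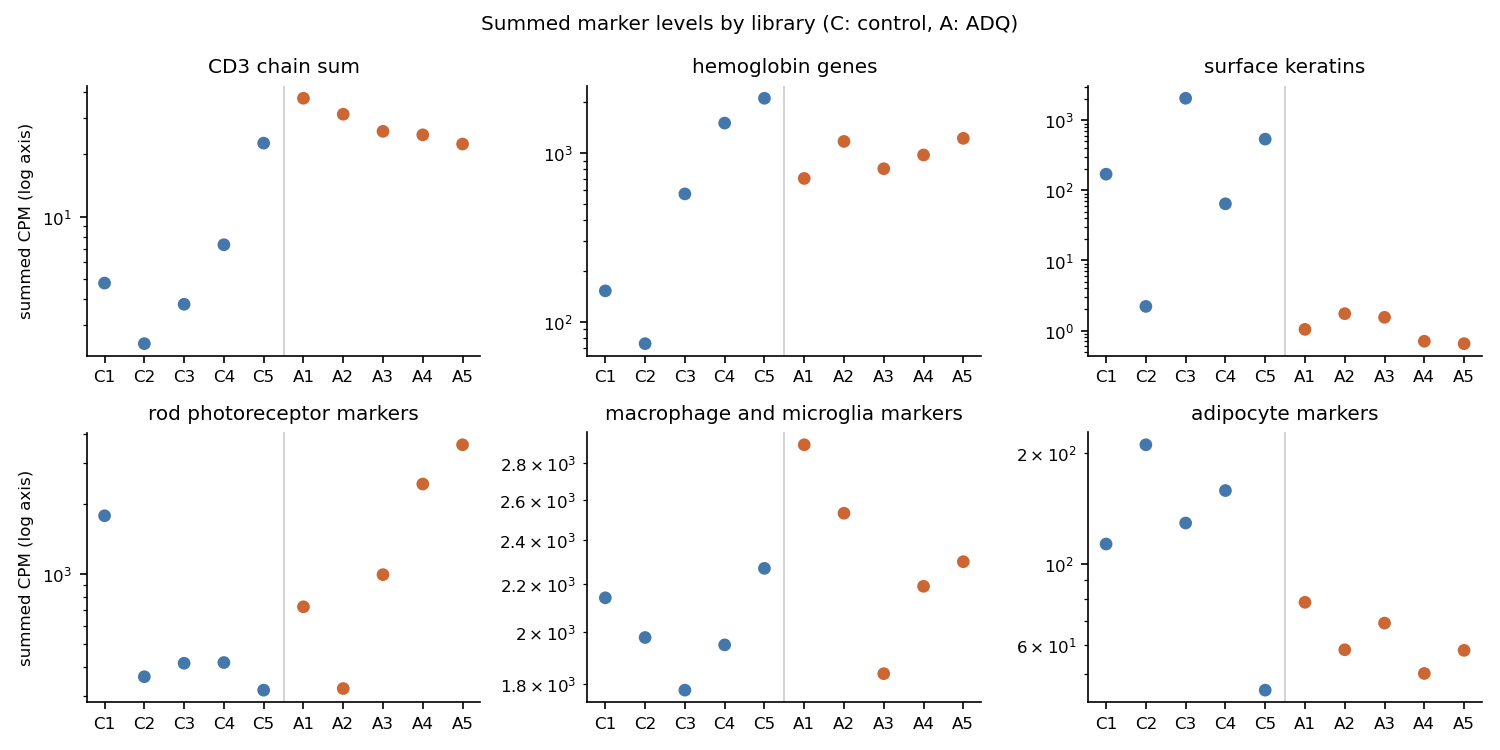
Summed CPM per library (log axes; C1 to C5 control, A1 to A5 ADQ) of the CD3 chains and of markers for blood, surface epithelium, rods, macrophages and fat. The CD3 sum is 2.43 to 7.31 CPM in controls 1 to 4, 22.7 CPM in the library labelled control 5 and 22.5 to 37.4 CPM in ADQ.

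The authors' deposited table, made on the same libraries and so not independent, called 7 of the 10 genes higher in ADQ at an adjusted p under 0.05, against 3.79% of its genes. In the authors' deposited table Cd3e had a log2 fold change of 2.43 (adjusted p = 0.00481), Cd3d 2.45 (0.00454), Cd3g 2.50 (0.002), Lck 2.25 (6.4e-04), Nkg7 2.10 (0.00499), Rasgrp1 1.74 (0.00676) and Cd8a 1.34 (0.03). Gzmb (1.29, adjusted p = 0.083) and Cd4 (0.31, adjusted p = 0.322) did not pass in the authors' deposited table, and Prf1 is not listed in it. A fit of limma voom with sample quality weights to the counts called the same 7 genes, with 2.47% of all genes passing upward.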

How the data were processed

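Per the submitters' processing notes, the authors used bcl2fastq, DRAGEN, edgeR and limma with the GRCm38 build. Versions, roles and strand use: not given in the sources used here. Per the labels' protocols, cDNA was amplified by SMARTer. The deposited count table holds raw counts per Ensembl gene; 287 entries repeating a gene were dropped. A further table deposited by the authors gives log2 CPM values, log2 fold changes, a signed linear fold, a moderated score and p-values, of which fold changes and adjusted p-values were used. Counts were tested with edgeR 4.0.16 (limma 3.58.1, DESeq2 1.42.0, R 4.3.3): filterByExpr defaults, TMM scaling, the robust quasi-likelihood test on group alone, Benjamini-Hochberg adjustment over 20684 genes at 0.05. The SE was taken as the absolute log2 fold change divided by the root of the F statistic. CPM values are TMM-scaled. Libraries held 49.4 ± 1.20 M (control) and 50.6 ± 7.93 M counts (ADQ; SD, n = 5 each); amplified reads have no molecular identifiers. No library duplicated another (smallest chi-square per degree of freedom 33.9). On simulated data for the ADQ against control comparison, with 20684 genes, the test recovered 41.8% of genes changed 1.5-fold, 76.1% changed 2-fold and 97.0% changed 4-fold. The changed genes had a mean of at least 1 CPM and no simulated library was made to stand apart. These shares therefore do not cover genes such as the CD3 chains, in which the library labelled control 5 does.

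The 10 genes and all lists were chosen with earlier results of these data known. Named genes are the 10, up to 4 genes with the smallest p from each list, and the 10 genes most like Cd3e. A gene that this rule names among the transcription factors is not reported here. Exon lengths and positions come from GENCODE M21, which holds 99.4% of the table's identifiers. Of the antigen receptor list, 3 gamma constant genes did not match a symbol. Same-numbered samples did not deviate together, so the numbers were not taken as pairs. The alternatives were other scalings, filters and tools, omission of each library, the fit without robust weights, a replicate block, and rod, keratin or erythroid covariates.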

Additional observations from a re-analysis of the deposited data

Results flagged for a closer look

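In 6 of 20 groups of 5 libraries examined for the 10 genes, 1 library lay far from the rest (gap over range above 0.71); chance alone gives about 5 in 100 groups. The 20 are not independent, since the genes share libraries. In 5 of them the library labelled control 5 was the high one. It held 5.92 CPM of Cd3d (other controls 0.572 to 1.94), 8.81 CPM of Cd3g (0.995 to 2.34), 4.59 CPM of Cd8a (1.09 to 1.83), 32.5 CPM of Nkg7 (3.81 to 9.23) and 3.87 CPM of Gzmb (0.687 to 0.949). The sixth was ADQ 5, low in Lck at 13.5 CPM (other ADQ libraries 16.7 to 17.6).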

How the results depend on the processing

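Over 22 alternatives, all 10 genes kept a log2 fold change above 0. Rasgrp1 passed in 21 of them, all but the keratin covariate. The number of the 10 genes called, 1 with all libraries, was 2 (Rasgrp1 and Lck) with library size alone, the stricter filter (at least 1 CPM in 5 libraries), DESeq2, the non-robust fit and the rod covariate, 3 with the erythroid covariate, 7 with limma voom and quality weights, and 0 with the keratin covariate; without single libraries it ran from 1 to 7, the 7 being without control 5. Of all genes 171 were called. The count was 773 with DESeq2, 664 with voom and 7 with the keratin covariate, and 78 to 357 without single libraries. Library size alone gave 229, the stricter filter 182 and the non-robust fit 202. The rod covariate gave 204 and the erythroid covariate 133. It was 96 without control 1, 78 without control 4, 357 without control 5, 81 without ADQ 2, 99 without ADQ 3 and 87 without ADQ 4. The replicate block gave 694 calls, with Rasgrp1 the 1 of the 10 called; same-numbered samples had correlations of deviations from -0.11 to 0.15, and 1 of the 5 controls correlated best with its own number. The cause of these differences was not tested. Prf1 was left out by the stricter filter. Genes near 20 counts, such as Prf1 and Rasgrp1 in control, are the least precise; in control 1 a count of 0 allows up to 0.0687 CPM.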
